A study of Mus musculus with 9 samples.

Results

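The genes described here are 32 interferon-stimulated genes, chosen by name as known genes of the antiviral response, with earlier results of these data known. They were found by symbol among the 25860 genes of a table of read counts. All 32 were present, and all 32 passed the filter on low counts. The table holds 9 RNA sequencing libraries of Osx1-Cre cells from the calvaria (skull cap) of newborn mice. Osx1-Cre is a transgene in which the osterix (Sp7) promoter, active in osteoblast precursors, drives Cre recombinase. Each library pools sorted cells from a set of pups, 3 to 5 in number and 2 to 4 days old, cultured in alpha-MEM with 10% serum and harvested at 90% confluence, and there were 5 libraries of genotype IRE1KO and 4 of genotype WT. IRE1 is the product of Ern1, a stress sensor in the membrane of the endoplasmic reticulum that splices Xbp1 mRNA. The deleted allele, the strain, whether WT cells came from littermates, and how the sort recognised Cre were not given in the sources used here, and no interferon, virus or other stimulus is named for any library.

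Type I interferons are secreted when a cell senses foreign or misplaced nucleic acid. They bind a receptor made of IFNAR1 and IFNAR2 on the same or a neighbouring cell, and the kinases JAK1 and TYK2 then activate a transcription factor complex that contains STAT2 and IRF9. This complex binds a DNA element called the interferon-stimulated response element, whose core is a pair of GAAA blocks, and so switches on many genes that block viral replication. In bone, type I interferon is known for restraining the formation of osteoclasts, and cells without infection keep these genes at a low tonic level. IRF7, itself an interferon-stimulated gene, amplifies the production of interferon.

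RefSeq promoters (GRCm38.p6, 250 bases before to 50 after each start) were found for 24 of the 32 genes, with 27 start sites. The letters GAAA, any 2 bases and GAAA again, read on both strands and counted also where matches overlap, occurred in 14 of the 27 promoters (51.9%), belonging to 14 genes, against 1131 of all 32851 promoters of the same length (3.44%). The letters TTCNNNGAA, the core of the element for interferon gamma and a palindrome in its fixed letters, occurred in 5 of the 27 (18.5%) against 8.30% of all promoters. The following sequences are the 160 bases before the start, 5′ to 3′ in the direction of the gene. Apart from that of Ifit2, they were taken from genes with a match. Genes without a match carry the pattern described below too. Capitals mark matches to this paired GAAA motif or its reverse complement. Ifit2, the gene with the smallest spread between libraries, is shown beside them and had no match in the window of its 2 start sites, which says only that these letters are absent there.
Isg15 (chr4:156200819-156200978, minus strand): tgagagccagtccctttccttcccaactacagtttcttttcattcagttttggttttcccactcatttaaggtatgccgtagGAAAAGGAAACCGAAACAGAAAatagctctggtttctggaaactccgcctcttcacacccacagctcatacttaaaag
Ifit3 (chr19:34583369-34583528, plus strand): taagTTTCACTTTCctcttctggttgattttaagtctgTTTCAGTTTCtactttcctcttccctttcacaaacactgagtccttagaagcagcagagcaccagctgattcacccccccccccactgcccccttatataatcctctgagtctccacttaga
Bst2 (chr8:71537473-71537632, minus strand): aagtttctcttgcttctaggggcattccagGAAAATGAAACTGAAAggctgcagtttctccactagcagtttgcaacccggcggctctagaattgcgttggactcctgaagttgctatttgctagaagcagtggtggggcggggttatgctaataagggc
Oas1a (chr5:120907526-120907685, minus strand): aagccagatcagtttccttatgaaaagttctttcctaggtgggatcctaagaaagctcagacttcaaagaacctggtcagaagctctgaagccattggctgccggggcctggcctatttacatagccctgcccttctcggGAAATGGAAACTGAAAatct
Rsad2 (chr12:26456453-26456612, minus strand): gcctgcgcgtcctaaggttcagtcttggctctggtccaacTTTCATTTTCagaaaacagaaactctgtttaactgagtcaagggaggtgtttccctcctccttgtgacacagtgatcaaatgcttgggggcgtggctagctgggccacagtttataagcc
Ifit2 (chr19:34550534-34550693, plus strand): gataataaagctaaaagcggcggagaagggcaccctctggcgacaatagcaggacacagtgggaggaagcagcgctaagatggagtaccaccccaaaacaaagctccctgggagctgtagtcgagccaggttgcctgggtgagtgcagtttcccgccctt
In Isg15, 3 overlapping matches began 78, 72 and 66 bases before the start, and in Ifit3, 2 separate matches began 156 and 122 bases before it. Those of Bst2, at 130 and 124 bases, and of Oas1a, at 20 and 14 bases before the start, overlapped. The single match of Rsad2 began 120 bases before the start. A match is a description of letters and not a shown binding site. The median spread of the 14 genes with a match, as the SD of log2 CPM, was 1.53 over the WT and 0.44 over the IRE1KO libraries, and that of the 10 without one was 1.36 and 0.42, so genes with and without the letters both varied. From the lowest to the highest library, Oasl2 and Ifi44, without a match, spanned 20.7-fold and 20.1-fold. Ddx58 and Eif2ak2, with one, spanned 2.68-fold and 2.26-fold.

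Total counts ranged from 18784636 to 22028075 per library. Levels are given as CPM, a gene's counts relative to its library total scaled by TMM (a normalization of library composition, with factors from 0.987 to 1.03), and 3 counts, the floor, corresponded to 0.136 to 0.16 CPM. Ern1 was at 49.8 to 55.8 CPM in the IRE1KO and 41.5 to 54.2 CPM in the WT libraries, a total over all exons that neither checks nor contradicts the genotype labels. Markers of mesenchyme and early osteoblasts were present: Col1a1, a chain of type I collagen, was at 15462 to 31100.3 CPM and Runx2, the lineage's early transcription factor, at 59.8 to 75.1 CPM. Bglap, the osteocalcin of mature osteoblasts, had at most 4 counts in any library. Pairs of IRE1KO libraries differed with 1.99 to 10.6 times the variance of sampling and pairs of WT libraries with 16.5 to 121 times. No 2 libraries thus differed by sampling alone, and the closest were IRE1KO libraries 3 and 5, at 1.99. These values cannot tell separate pools of pups from separate preparations of 1 pool. WT library 4 was the highest or the lowest of the 9 for 30.5% of all tested genes each.

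The 32 genes varied together, and they ordered the libraries in a way that crossed the genotypes. WT library 2 was the lowest of the 9 libraries for 30 of the 32 genes and WT library 1 for the other 2, Ifit2 and Trim25. WT library 4 was the highest for 24, IRE1KO library 4 for 7 and IRE1KO library 2 for 1. As a background over all tested genes, WT library 2 was lowest for 12.3%, WT library 1 lowest for 16.5% and WT library 4 highest for 30.5%. All 5 IRE1KO libraries lay above WT libraries 1 and 2 for all 32 genes and below WT library 4 for 24 of them, while WT library 3 lay within the range of the IRE1KO libraries for 29. On the mean over the 32 genes of log2 CPM relative to the 9 libraries, WT library 2 was at -2.09, WT library 1 at -0.99, WT library 3 at 0.14 and WT library 4 at 1.19. The IRE1KO libraries 1 to 5 were at 0.35, 0.73, -0.17, 0.92 and -0.08. Within IRE1KO, libraries 3 and 5 were both below libraries 1, 2 and 4 for 29 of the 32 genes. Libraries 3 and 5 were also the closest 2 libraries in the variance over sampling given above. On the mean over the 32 genes, IRE1KO library 1 lay between them and libraries 2 and 4. For such orders of several libraries, here and in the lists below, the share of all tested genes was not counted. They are therefore given without a background. The labels put all libraries in a single preparation and sequencing batch and name no litter, sort or culture day that could be set against the order. In bulk samples, fewer cells of a type and less RNA per cell cannot be told apart.

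**Figure D1:**
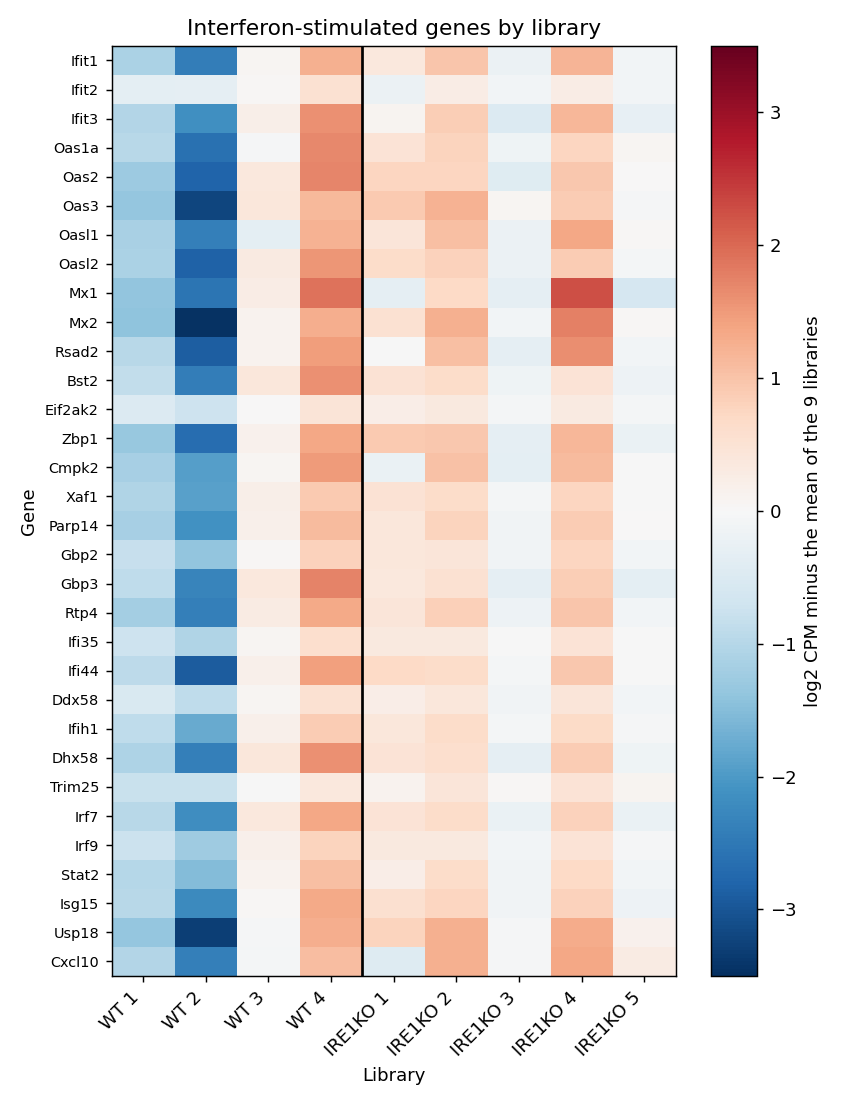
Log2 CPM of each of the 32 genes (rows) in each library (columns, WT left of the line) relative to the gene's mean over the 9 libraries, with blue for lower and red for higher. WT library 2 is the lowest for 30 genes, WT library 4 the highest for 24, and IRE1KO libraries 3 and 5 are paler than libraries 1, 2 and 4.

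Of the transcription factors of the response, Irf7 was at 47.03, 53.4, 29.2, 59.1 and 28.8 CPM in IRE1KO libraries 1 to 5 and 17.3, 7.49, 43.7 and 86.6 CPM in WT libraries 1 to 4. The WT libraries thus spanned both ends of the range, with the IRE1KO libraries between them. Irf9, the DNA-binding subunit of the complex activated by type I interferon, was at 84.2, 85.5, 62.2, 93.7 and 65.2 CPM in IRE1KO libraries 1 to 5 and 39.4, 28.5, 75.3 and 116 CPM in WT libraries 1 to 4. Stat2, its signal-transducing subunit, was at 149, 197, 115, 204 and 118 CPM in IRE1KO libraries 1 to 5 and 62.4, 43.8, 136 and 258 CPM in WT libraries 1 to 4. For both, WT libraries 1 and 2 were below and WT library 4 above every IRE1KO library. Irf7 spanned 11.6-fold from the lowest to the highest library, Stat2 5.90-fold and Irf9 4.06-fold.

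Isg15 encodes a ubiquitin-like protein that is attached to other proteins during the response, and Usp18 the protease that removes it and that also binds IFNAR2 to dampen signalling. Isg15 was at 45.5, 52.1, 28.3, 53.3 and 27.3 CPM in IRE1KO libraries 1 to 5 and 15.8, 6.57, 31.5 and 76.7 CPM in WT libraries 1 to 4. Usp18 was at 79.7, 108, 44.99, 112 and 50.7 CPM in IRE1KO libraries 1 to 5 and 17.98, 4.67, 44.7 and 112 CPM in WT libraries 1 to 4. Usp18 spanned 24.1-fold over the libraries and Isg15 11.7-fold. For Usp18, unlike Isg15, IRE1KO libraries 2 and 4 stood level with WT library 4 within a few CPM.

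The RNA sensors of the RIG-I family detect viral RNA in the cytoplasm, and Trim25 is the ubiquitin ligase that acts on RIG-I. Ddx58, which encodes RIG-I, was at 191, 218, 149, 219.6 and 153 CPM in IRE1KO libraries 1 to 5 and 113, 88.1, 172 and 236 CPM in WT libraries 1 to 4. Ifih1, which encodes MDA5, the sensor of long double-stranded RNA, was at 70.6, 84.4, 51.6, 85.01 and 52.6 CPM in IRE1KO libraries 1 to 5 and 29.1, 15.8, 61.4 and 99.2 CPM in WT libraries 1 to 4. Dhx58, which encodes LGP2, a regulator of both sensors, was at 29.5, 31.5, 17.1, 38.9 and 18.99 CPM in IRE1KO libraries 1 to 5 and 10.1, 4.00, 27.7 and 63.6 CPM in WT libraries 1 to 4. For these sensors WT library 2 was the lowest and WT library 4 the highest, but they differed in span, from 2.68-fold for Ddx58 to 6.30-fold for Ifih1 and 15.9-fold for Dhx58. Trim25 was at 101, 123, 94.9, 129 and 98.7 CPM in IRE1KO libraries 1 to 5 and 54.1, 54.1, 92.2 and 119.9 CPM in WT libraries 1 to 4. For Trim25, WT libraries 1 and 2 were almost equal and IRE1KO library 4 was the highest.

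The Ifit genes encode proteins that bind viral RNA and block its translation, and they lie in a cluster on chromosome 19 (GRCm38, Ifit2 from 34550694 to 34576419, Ifit3 from 34583531 to 34588731, Ifit1 from 34640871 to 34650009). Ifit1 was at 126, 192, 85.2, 222 and 90.9 CPM in IRE1KO libraries 1 to 5 and 44.9, 18.3, 103 and 229.9 CPM in WT libraries 1 to 4. Ifit3 was at 38.9, 66.5, 26.2, 80.7 and 29.7 CPM in IRE1KO libraries 1 to 5 and 17.9, 8.16, 41.8 and 110.3 CPM in WT libraries 1 to 4. Both spanned over 10-fold, and WT library 4 was the highest for both. Ifit2, their neighbour, was at 27.5, 37.8, 29.9, 37.7 and 29.5 CPM in IRE1KO libraries 1 to 5 and 24.8, 25.7, 32.4 and 45.7 CPM in WT libraries 1 to 4. Its span of 1.84-fold was the smallest of the 32 genes, and IRE1KO library 1 was its lowest IRE1KO library. Ifit2 was also the gene that followed the others least, with a median pairwise r of 0.86 with them.

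The 2′-5′ oligoadenylate synthetases make the messenger that activates RNase L, and Oasl1 and Oasl2 are their relatives. Oas1a was at 12.8, 15.5, 8.29, 15.2 and 9.59 CPM in IRE1KO libraries 1 to 5 and 4.65, 1.49, 8.89 and 29.3 CPM in WT libraries 1 to 4. Oas2 was at 17.9, 18.02, 8.02, 20.5 and 10.7 CPM in IRE1KO libraries 1 to 5 and 4.39, 1.54, 13.7 and 34.8 CPM in WT libraries 1 to 4. Oasl2 was at 125, 139, 69.9, 148 and 75.7 CPM in IRE1KO libraries 1 to 5 and 37.4, 11.3, 98.5 and 234 CPM in WT libraries 1 to 4. In each, WT library 4 exceeded the highest IRE1KO library and WT library 2 was the lowest by a wide margin. Oas3 and Oasl1, which were lower in count, ranged from 0.513 to 11.1 CPM and from 1.08 to 14.4 CPM, both with the lowest value in WT library 2, and with the highest in IRE1KO library 2 for Oas3 and library 4 for Oasl1.

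Mx1 and Mx2 encode dynamin-like GTPases that trap viral components, on chromosome 16, where the annotation lists Mx2 as a polymorphic pseudogene. Mx2 was at 12.1, 19.8, 7.91, 28.8 and 8.68 CPM in IRE1KO libraries 1 to 5 and 3.17, 0.770, 9.25 and 20.3 CPM in WT libraries 1 to 4. Its span of 37.4-fold was the widest of the 32 genes, from 15 counts upward. Mx1, chosen here after its values were seen, was at 2.67, 5.33, 2.66, 15.6 and 2.21 CPM in IRE1KO libraries 1 to 5 and 1.28, 0.565, 3.94 and 12.4 CPM in WT libraries 1 to 4. IRE1KO library 4 stood above the other IRE1KO libraries for Mx1. Rsad2, which encodes viperin, a radical enzyme that makes a chain-terminating nucleotide, and Cmpk2, the nucleotide kinase encoded next to it on chromosome 12, ranged from 0.770 to 17.5 CPM and from 1.49 to 16.1 CPM, both lowest in WT library 2.

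Further effectors were also lowest in WT library 2 and highest in WT library 4. Bst2, which encodes tetherin, a membrane protein that holds budding virus at the cell surface, was at 124, 137, 78.2, 121 and 76.7 CPM in IRE1KO libraries 1 to 5 and 47.9, 16.4, 114 and 265 CPM in WT libraries 1 to 4. Eif2ak2, which encodes PKR, a kinase that stops translation on double-stranded RNA, was at 187, 202, 150.1, 198 and 150.4 CPM in IRE1KO libraries 1 to 5 and 113, 95.1, 160.4 and 215 CPM in WT libraries 1 to 4. Zbp1, a sensor of Z-form nucleic acid that can start cell death, was at 42.2, 43.4, 18.3, 50.8 and 19.2 CPM in IRE1KO libraries 1 to 5 and 8.99, 3.54, 25.1 and 57.9 CPM in WT libraries 1 to 4. Bst2 thus spanned 16.2-fold and Zbp1 16.3-fold, but Eif2ak2 2.26-fold. Gbp2, a guanylate-binding GTPase that coats intracellular pathogens, was at 95.3, 97.5, 66.8, 121 and 68.04 CPM in IRE1KO libraries 1 to 5 and 41.6, 27.9, 74.4 and 126 CPM in WT libraries 1 to 4. Gbp3, its neighbour on chromosome 3, was at 48.7, 54.9, 30.7, 68.5 and 30.1 CPM in IRE1KO libraries 1 to 5 and 20.4, 7.70, 48.9 and 127 CPM in WT libraries 1 to 4. Parp14, an ADP-ribosyltransferase, was at 78.9, 104, 55.3, 111 and 60.4 CPM in IRE1KO libraries 1 to 5 and 26.7, 13.9, 67.96 and 130.1 CPM in WT libraries 1 to 4. WT library 4 was the highest library for each of these 6 genes, by the widest margin over the IRE1KO libraries for Bst2 and Gbp3.

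Xaf1, a partner of the apoptosis inhibitor XIAP, was at 60.1, 65.6, 39.7, 70.9 and 41.7 CPM in IRE1KO libraries 1 to 5 and 20.3, 11.2, 48.6 and 78.6 CPM in WT libraries 1 to 4. Rtp4, a chaperone of G-protein-coupled receptors, was at 40.96, 53.9, 26.8, 59.8 and 28.2 CPM in IRE1KO libraries 1 to 5 and 13.4, 5.80, 37.2 and 76.7 CPM in WT libraries 1 to 4. Both followed the order of the libraries. Ifi35 was at 50.4, 50.5, 39.04, 54.9 and 39.03 CPM in IRE1KO libraries 1 to 5 and 23.7, 19.1, 41.1 and 59.3 CPM in WT libraries 1 to 4. Ifi44 was at 68.3, 64.9, 39.7, 80.95 and 41.8 CPM in IRE1KO libraries 1 to 5 and 22.3, 5.59, 47.8 and 112 CPM in WT libraries 1 to 4. Ifi44 spanned 20.1-fold and Ifi35 3.10-fold. Cxcl10, the chemokine that recruits T cells through CXCR3, was at 5.44, 17.7, 7.33, 19.01 and 9.21 CPM in IRE1KO libraries 1 to 5 and 3.68, 1.44, 7.17 and 15.7 CPM in WT libraries 1 to 4. In Cxcl10 IRE1KO library 1 was the lowest IRE1KO library, below libraries 3 and 5, as it was for Ifit2, and IRE1KO library 4 was the highest of all.

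**Figure D2:**
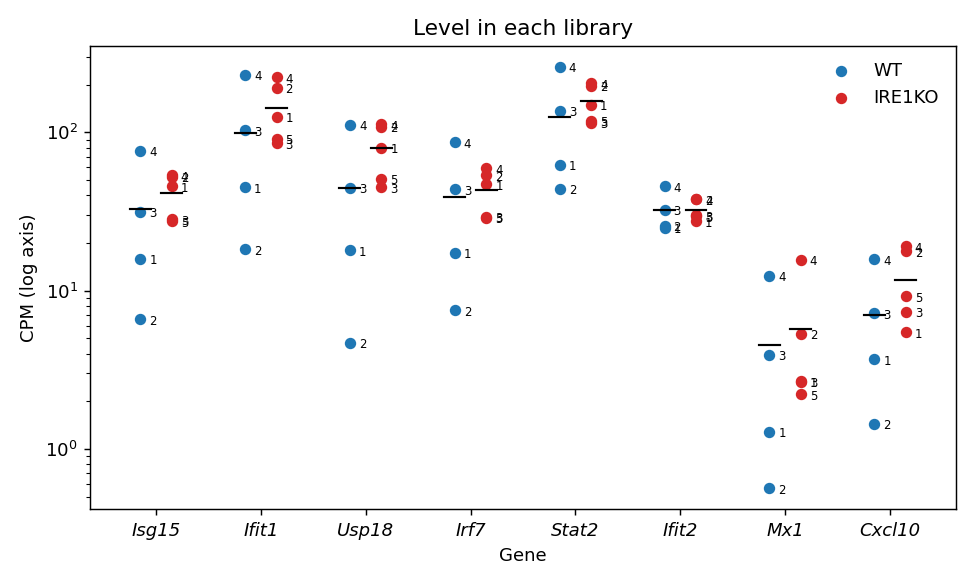
CPM on a log axis of 8 of the genes in each WT (blue) and IRE1KO (red) library, with the library number beside each point and a black line at the group mean. For all 8 genes WT libraries 1 and 2 lie below every IRE1KO library, and the 2 groups overlap.

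Per kilobase of annotated exons, Bst2 had the highest mean level over the 9 libraries at 121 CPM per kb, followed by Isg15 at 49.6 and Ifit1 at 46.5 CPM per kb, and Oas3 had the lowest at 0.908 CPM per kb. From the lowest to the highest library, 21 of the 32 genes spanned over 10-fold and 4 under 3-fold. Those 4 were Ifit2, Trim25, Eif2ak2 and Ddx58. Within WT the span had a median of 12.4-fold (1.84-fold to 26.4-fold), and within IRE1KO a median of 2.09-fold (1.34-fold to 7.09-fold).

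Measured as the SD of log2 CPM, the spread of the 32 genes had a median of 1.55 over the WT libraries (0.40 to 1.97), against a median of 0.16 over all 13712 tested genes. Over the IRE1KO libraries the median was 0.50 (0.20 to 1.14), against 0.08. The spread was wider in WT than in IRE1KO for 32 of 32 genes, a direction shared by 82.7% of all tested genes. Among the tested genes, 29 of the 32 were in the upper 10% of spread within WT and 26 within IRE1KO, and 26 were in both, as were 5.62% of all tested genes. The list was chosen with earlier results of these data known, so these shares are a description. Usp18 had SDs of 1.94 in WT and 0.61 in IRE1KO, Mx1 of 1.85 in WT and 1.14 in IRE1KO and Trim25 of 0.57 in WT and 0.20 in IRE1KO. With group means removed, the pairwise Pearson r between the genes had a median of 0.98 over 496 pairs (0.78 to 0.999) and exceeded 0.9 in 449 of them. These r values are a description over the same 9 libraries, in which WT libraries 2 and 4 lie farthest out, and they carry no p. The r between pairs of all tested genes was not computed, so the median and the count of pairs have no background. WT library 4 was also the highest for 30.5% and the lowest for 30.5% of all tested genes.

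**Figure D3:**
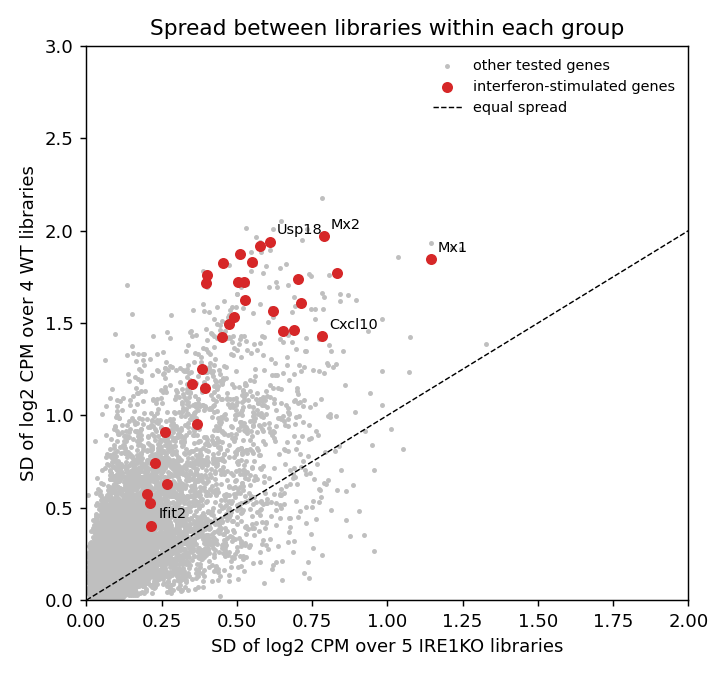
SD of log2 CPM over the WT libraries (vertical) against that over the IRE1KO libraries (horizontal), with 1 point per tested gene and the 32 genes in red. All 32 lie above the dashed line of equal spread.

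The comparison of IRE1KO with WT asks whether loss of IRE1 moved this group of genes. None of the 32 genes passed the threshold of 0.05 on the adjusted p (edgeR quasi-likelihood, Benjamini-Hochberg over all genes), against 0.634% of all tested genes (87 of 13712). None reached an unadjusted p of 0.05 either, against 16.5% of all tested genes, and DESeq2 (4.14% of all genes called) and limma voom (0.117%) also called 0 of the 32, both with 0 at an unadjusted p under 0.05. The libraries of the groups overlapped for all 32, while they did not for 6.93% of all tested genes. The fitted log2 fold changes of IRE1KO over WT were positive for 30 of the 32 genes, against 48.4% of all tested genes, with a median of 0.33 against -0.01 over all tested genes. A p above the threshold does not show equal levels, since the SE reached 0.88 on the log2 scale. The fit also used a single variance estimate per gene for both groups, although all 32 genes varied more within WT. How far this moved the SE and p was not tested.

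Trim25 had the smallest p of the 32, with 109 ± 15.6 CPM (SD, n = 5) over the knockout libraries against 80.1 ± 32.05 CPM (SD, n = 4) over WT (log2 fold change 0.45 ± 0.24 SE, adjusted p = 0.382, edgeR). Mx2 had the largest fitted difference, at 15.5 ± 8.82 CPM (SD, n = 5) over the knockout libraries against 8.38 ± 8.73 CPM (SD, n = 4) over WT (log2 fold change 0.89 ± 0.74 SE, adjusted p = 0.583, edgeR), and its SE nearly equalled it. Usp18 was at 79.2 ± 31.3 CPM (SD, n = 5) over the knockout libraries against 44.8 ± 47.6 CPM (SD, n = 4) over WT (log2 fold change 0.82 ± 0.71 SE, adjusted p = 0.598, edgeR). Irf7 had log2 fold change 0.17 ± 0.59 SE, adjusted p = 0.918 in edgeR, and Isg15 log2 fold change 0.34 ± 0.58 SE, adjusted p = 0.807 in edgeR. The negative values were those of Bst2 (log2 fold change -0.04 ± 0.63 SE, adjusted p = 0.984, edgeR) and Gbp3 (log2 fold change -0.13 ± 0.66 SE, adjusted p = 0.946, edgeR). For both the WT mean was carried by WT library 4, at 265 and 127 CPM. Dhx58 and Ifi35 lie 5.69 and 4.94 Mb from Ern1 on chromosome 11, and neither passed (adjusted p = 0.981 and 0.555, edgeR).

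The size and direction of the difference depended on which WT libraries were included. Without WT library 4 the median log2 fold change of the 32 genes was 1.16, all 32 values were positive (against 49.3% of all tested genes) and 17 had an unadjusted p under 0.05 (against 20.1%), while the smallest adjusted p was 0.115 in edgeR's test. Without WT library 2 the median was 0.07 and 18 of 32 were positive (against 47.1%), and without WT library 1 it was 0.14. With WT libraries 2 and 4 both left out it was 0.72, all 32 were positive (against 49.2%) and 4 had an unadjusted p under 0.05 (against 12.5%). With WT libraries 1 and 2 both left out, which leaves libraries 3 and 4, it was -0.28, 5 of the 32 were positive (against 48.8%) and 0 had an unadjusted p under 0.05 (against 39.1%). Leaving out 1 IRE1KO library gave medians from 0.21, without library 4, to 0.45, without library 3. In limma voom, which averages log values where edgeR compares mean counts, the median was 0.82. All 32 values were positive there (against 7000 of all 13712 tested genes). Because the genes varied together, such counts are not 32 separate observations. No gene of the 32 was called with other scalings or filters (0.335%, 0.253% and 0.526% of all genes called with upper-quartile factors, no filter and a minimum mean of 1 CPM). None was called without IRE1KO library 1, 2, 3, 4 or 5 (0.0439%, 0.0146%, 0.0585%, 0.0587% and 0.022% of all genes) or without WT library 1, 2, 3 or 4 (8.63%, 0.0508%, 0.0218% and 2.9%). With a pair of WT libraries left out, again none was called (0.194% of all genes without libraries 2 and 4, and 23.1% without libraries 1 and 2).

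**Figure D4:**
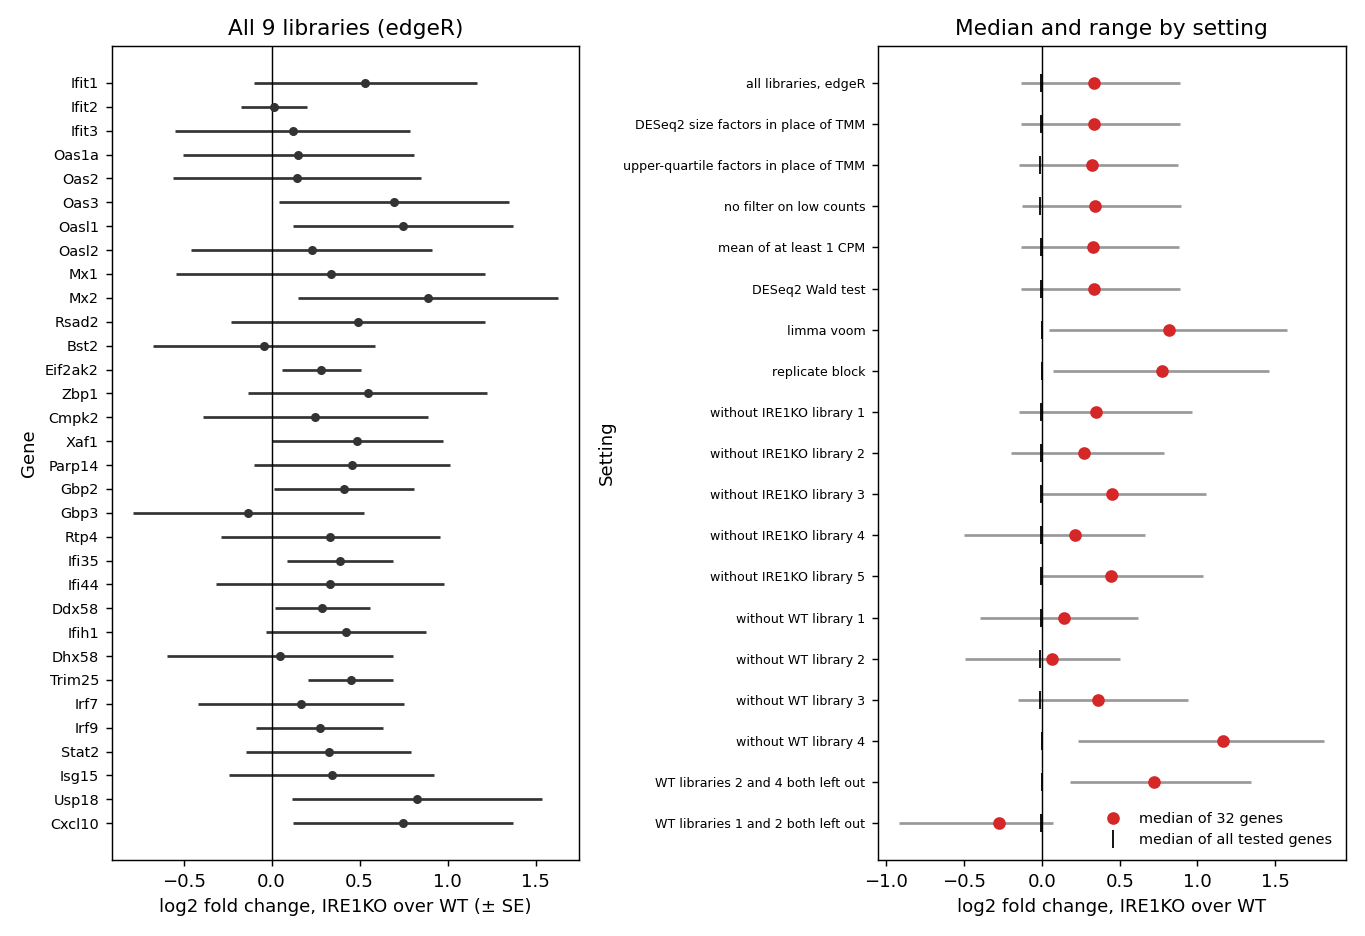
Left, log2 fold change of IRE1KO over WT with its SE for each of the 32 genes in edgeR. Right, the median (red) and range (grey line) of the 32 fold changes under each choice of test, scaling or libraries, with the median of all tested genes as a black tick; the red median is negative in 1 setting, in which WT libraries 1 and 2 are left out.

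Transcripts of the interferons themselves were at or near the limit of detection. Of 19 interferon genes in the table, 17 had 0 counts in every library, which allows up to 0.136 to 0.16 CPM. Ifnb1, the interferon most fibroblasts make first, had 0 to 2 counts per library, and Ifnz, a divergent member of the type I family, had 1 to 6 counts. The type I receptor genes were present in every library. Ifnar1 was at 106, 104, 112 and 115 CPM in WT libraries 1 to 4 and 108, 104, 107, 106 and 104 CPM in IRE1KO libraries 1 to 5. Ifnar2 was at 46.5, 45.7, 50.8 and 57.2 CPM in WT libraries 1 to 4 and 50.1, 53.8, 49.4, 52.01 and 49.8 CPM in IRE1KO libraries 1 to 5. Ifnar1 and Ifnar2 thus spanned 1.11-fold and 1.25-fold, and none of 6 tested receptor genes passed in edgeR (median log2 fold change -0.03, range -0.53 to 0.12, against -0.01 over all tested genes). The lowest p among them was that of Ifnlr1, listed as Il28ra, the receptor chain for interferon lambda (log2 fold change -0.53 ± 0.32 SE, adjusted p = 0.433, edgeR), followed by Il10rb (log2 fold change -0.07 ± 0.05 SE, adjusted p = 0.524, edgeR), its partner chain.

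Of 10 tested genes of signal transduction none passed (median log2 fold change 0.03). Jak1, the kinase bound to IFNAR2, was at 359.5, 346, 368 and 353 CPM in WT libraries 1 to 4 and 372, 382, 357, 369.7 and 362 CPM in IRE1KO libraries 1 to 5. Tyk2, the kinase bound to IFNAR1, had log2 fold change -0.19 ± 0.06 SE, adjusted p = 0.188 in edgeR, Stat3 log2 fold change 0.10 ± 0.06 SE, adjusted p = 0.382 and Irf5 log2 fold change 0.13 ± 0.12 SE, adjusted p = 0.635. The span over the libraries had a median of 1.31-fold in this list. Of 10 tested genes of nucleic acid sensing none passed (median 0.03), and the lowest p were those of Ikbke, a kinase that activates IRF3 and IRF7 (log2 fold change -0.21 ± 0.06 SE, adjusted p = 0.160, edgeR), and Tmem173, which encodes STING (log2 fold change 0.22 ± 0.11 SE, adjusted p = 0.332, edgeR). Tlr3, the endosomal sensor of double-stranded RNA and itself inducible by interferon, was at 23.9, 20.8, 35.7 and 52.5 CPM in WT libraries 1 to 4 and 35.9, 38.04, 30.4, 42.9 and 30.02 CPM in IRE1KO libraries 1 to 5, lowest in WT library 2 and highest in WT library 4. It was named after its values were seen.

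Of 12 tested genes that restrain the response none passed (median 0.01), and Socs3, a feedback inhibitor of cytokine receptors, had log2 fold change -0.35 ± 0.22 SE, adjusted p = 0.452 in edgeR. Adar, an RNA-editing enzyme with an interferon-inducible form, was at 76.2, 66.8, 109 and 156 CPM in WT libraries 1 to 4 and 122, 139, 105, 138 and 108 CPM in IRE1KO libraries 1 to 5, again lowest in WT libraries 1 and 2. A list of 55 further interferon-stimulated genes had 48 tested members, of which none passed in edgeR (median log2 fold change 0.17, 36 positive). WT library 2 was the lowest for 44 of these 48 and WT library 4 the highest for 40, and WT libraries 1 and 2 lay below every IRE1KO library for 46. Slfn5, a member of the Schlafen family, was at 12.9, 3.08, 21.5 and 61.8 CPM in WT libraries 1 to 4 and 49.6, 60.6, 29.3, 68.1 and 31.6 CPM in IRE1KO libraries 1 to 5 (log2 fold change 0.95 ± 0.66 SE, adjusted p = 0.503, edgeR). Pml, the scaffold of nuclear bodies, was at 74.8 to 101 CPM across the 9 cultures, a narrow span (log2 fold change 0.12 ± 0.06 SE, adjusted p = 0.386, edgeR). Apol9b, an apolipoprotein L gene, had the smallest p of the list (log2 fold change 0.48 ± 0.25 SE, adjusted p = 0.367, edgeR).

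Macrophage and osteoclast markers, which the culture could hold in a few cells, varied with the 32 genes in part. All 16 listed markers were tested, none passed in edgeR and none was at 0 in any library. Their summed level was 356 to 586 CPM in the IRE1KO and 233 to 547 CPM in the WT libraries. Ctsk alone made up a large part of this sum. It was at 123 CPM in WT library 2, its lowest, and 215 CPM in IRE1KO library 2, its highest, a span of 1.74-fold. Lyz2, the lysozyme of macrophages, was at 103, 42.8, 147 and 128 CPM in WT libraries 1 to 4 and 125, 125, 71.5, 163 and 71.4 CPM in IRE1KO libraries 1 to 5. Csf1r, the receptor for macrophage colony-stimulating factor, was at 25.3, 9.70, 34.5 and 25.5 CPM in WT libraries 1 to 4 and 29.9, 30.6, 18.4, 37.6 and 18.9 CPM in IRE1KO libraries 1 to 5. WT library 2 was the lowest for 14 of the 16, and IRE1KO libraries 3 and 5 were below libraries 1, 2 and 4 for 14 of the 16, both as in the 32 genes. The order differed elsewhere: WT library 1 was above IRE1KO libraries 3 and 5 for 12 of the 16 markers and for 0 of the 32 genes, and WT library 4 was the highest for 3 of the 16. Their part in the spread of the 32 genes was not tested. Markers of lymphoid and dendritic cells summed to 0.0531 to 1.28 CPM, with 8 of 12, Siglech of plasmacytoid dendritic cells among them, at 0 counts in every library.

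The 12 osteoblast and mesenchyme markers, most of their level from Col1a1 and Col1a2, summed to 30188, 28860.5, 34001 and 58151 CPM in WT libraries 1 to 4 and to 39002 to 43271 CPM in the IRE1KO libraries, so WT library 2 was the lowest and WT library 4 the highest, as for the 32 genes. By gene, WT library 2 was the lowest for 4 and WT library 4 the highest for 7 of the 11 tested, and none passed in edgeR. The smallest p were those of Ibsp, bone sialoprotein (log2 fold change -2.06 ± 0.58 SE, adjusted p = 0.152, edgeR), and Spp1, osteopontin (log2 fold change -0.78 ± 0.26 SE, adjusted p = 0.205, edgeR), matrix proteins of bone. The 8 endothelial markers summed to 17.2, 13.7, 18.7 and 34.1 CPM in WT libraries 1 to 4 and 11.95 to 16.4 CPM in the IRE1KO libraries, again highest in WT library 4, with WT library 2 the lowest for 1 of the 6 tested. Pecam1, an adhesion molecule of endothelial and some blood cells, was the only listed gene that passed, lower in IRE1KO at 1 to 18 counts per library (log2 fold change -1.99 ± 0.36 SE, adjusted p = 0.0497, edgeR). Its adjusted p in edgeR was 0.111 to 0.141 without any 1 of the IRE1KO libraries or without WT library 2 or 3, and 0.265 with the replicate block. With upper-quartile factors or no filter in edgeR, or in limma voom, it was 0.0522 to 0.0603. The call was lost in all of these settings. It was kept in the DESeq2 test (adjusted p = 0.00536). In edgeR it was kept with DESeq2 size factors (adjusted p = 0.0497), without WT library 1 (0.0191) and without WT library 4 (0.0402). With WT libraries 1 and 2 both left out, its adjusted p in edgeR was 0.0201, and with WT libraries 2 and 4 left out 0.187. Under a minimum mean of 1 CPM, Pecam1 was not tested. The part of these cell types in the spread of the 32 genes was not tested.

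**Figure D5:**
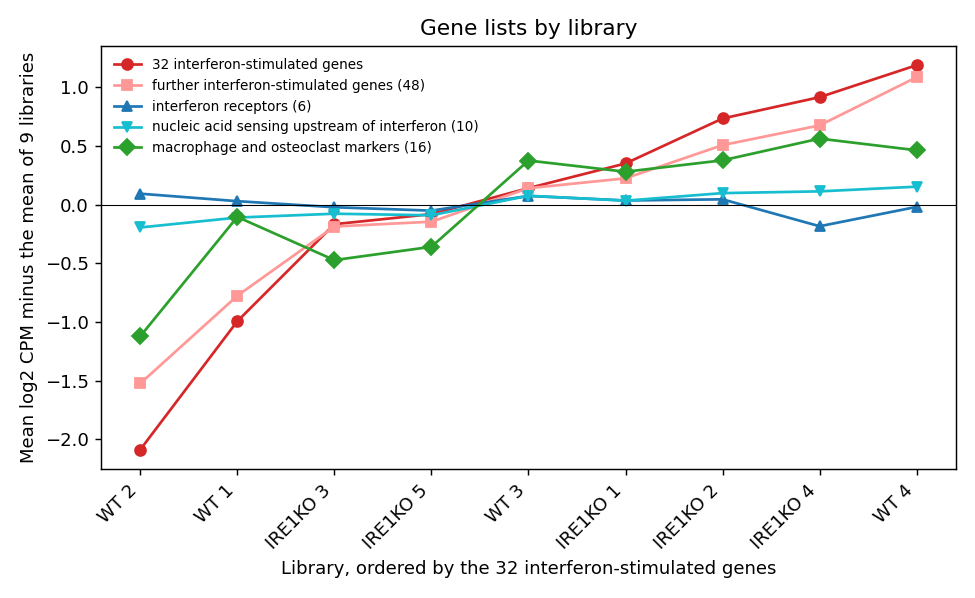
Mean over each list of log2 CPM relative to the 9 libraries, with libraries ordered from the lowest to the highest mean of the 32 genes (red) and the number of tested genes per list in brackets. The further interferon-stimulated genes follow the 32 genes from -1.52 to 1.09, the receptors stay between -0.18 and 0.09, and the macrophage and osteoclast markers run from -1.12 in WT library 2 to 0.56 in IRE1KO library 4 in another order.

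Some of these counts could be shared with other genes. Oas1a has close relatives at its locus, among them Oas1b and Oas1g, Ifit3 has a near copy, Ifit3b, listed as I830012O16Rik, and the Gbp genes form a family of similar sequence. Exons of Irf9 share 123 annotated bases with Rnf31 on the same strand, and those of Irf7, Cxcl10, Ifi35, Dhx58 and Oasl1 share 38 to 290 bases with genes on the opposite strand that are also in the table. The library kit marks strand, and the sources used here do not say how the counting treated it.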

How the data were processed

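RNA was measured in 5 IRE1KO and 4 WT libraries, polyadenylated and strand-marked, prepared and sequenced in 1 batch per the labels. The authors deposited raw counts per gene and library; STAR, limma and mm10 are listed, per the submitters' processing notes, with no role; the counter, its annotation and its use of strand were not given in the sources used here. Each library is a pool of pups per the labels, and p-values reflect the spread between libraries. The counts cannot tell whether libraries of 1 genotype came from separate pools.

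Genes were kept by filterByExpr (13712 of 25860), scaled by TMM and compared with edgeR 4.0.16 (quasi-likelihood, robust; R 4.3.3), with Benjamini-Hochberg adjustment at 0.05. Alternatives used DESeq2 1.42.0, limma 3.58.1, other scalings and filters, a replicate block, and each library left out. SDs used log2 CPM with a prior count of 2. Positions came from GENCODE M21 (GRCm38) by Ensembl identifier, for 32 of 32 genes. Figures were drawn with matplotlib 3.10.9. The fit was tested on counts simulated gene by gene with the same spread setting in both groups. That test does not cover the wider spread within WT or the covariation of the 32 genes.

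The members and gene lists were chosen with earlier results of these data known. Every member with a mean of at least 10 CPM over the libraries was given in every library, as was the member with the smallest p in its role group (Cxcl10, the only chemokine, entered this way); the others were given by their range, except Mx1. Up to 4 genes with the smallest p were named per pathway list. Some genes of the pathway lists are not reported here.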

Additional observations from a re-analysis of the deposited data

Results flagged for a closer look

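For Mx1, IRE1KO library 4, at 15.6 CPM, lay apart from the other IRE1KO libraries, with a gap to the next library of 0.768 of the range (Dixon's limit for 5 libraries is 0.71). This was the only one of 64 sets of libraries (32 genes in 2 genotypes) past the limit on the CPM scale, and 0 of 64 were past it on the log2 scale. Chance alone passes the limit in about 1 of 20 sets.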

How the results depend on the processing

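No gene of the 32 passed with another scaling, filter, test or block, with any 1 library left out, or with WT libraries 2 and 4, or 1 and 2, left out together, 2 choices made after seeing the data. The number of genes called among all genes was 87 in the main test, 46 with upper-quartile factors, 45 without a filter on low counts, 568 in DESeq2, 16 in limma voom, 2 to 1192 when 1 library was left out, 27 without WT libraries 2 and 4 and 3234 without WT libraries 1 and 2. With the replicate block, edgeR called 0 genes (1596 at an unadjusted p under 0.05). The median log2 fold change of the 32 was 0.774 with the replicate block, with all 32 positive (against 6972 of all 13712 tested genes). Same-numbered libraries had correlated deviations of 0.15, -0.20, -0.19 and 0.47, and 4 of 8 correlated best with their own number, a hint from the data and not the design. The labels name no litter or culture day shared by same-numbered libraries, so the numbers were not taken to pair the libraries. The median log2 fold change of the 32 was -0.279 without WT libraries 1 and 2. Bst2 and Gbp3, negative in the main test, were at 0.582 and 0.499 in limma voom and at 0.605 and 0.52 with the replicate block. Leaving out 1 library changed the sign of 14 genes, none of which passed on either side: Ifit2 ranged from -0.092 to 0.231, Ifit3 from -0.229 to 1.094, Oas1a from -0.217 to 1.291, Oas2 from -0.23 to 1.196, Oasl2 from -0.145 to 1.181, Mx1 from -0.501 to 1.566, Bst2 from -0.407 to 0.853, Cmpk2 from -0.085 to 1.214, Gbp3 from -0.494 to 0.858, Rtp4 from -0.019 to 1.154, Ifi44 from -0.042 to 1.226, Dhx58 from -0.313 to 0.965, Irf7 from -0.179 to 0.928 and Isg15 from -0.002 to 1.198. The cause was not tested. The median SD within WT stayed between 1.18 and 1.84 and within IRE1KO between 0.44 and 0.56 when 1 library was left out. The lowest count of any of the 32 genes in a library was 10, so counting error is largest for Oas3 and Mx1 in WT library 2.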
